A study of Mus musculus with 9 samples.

Results

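The laminins, elastic fibre proteins and matricellular proteins were followed as 45 genes of the 18193 measured on these arrays. Members were chosen by gene symbol: the laminin chains, nidogens and perlecan, elastin, fibrillins, fibulins, emilins and microfibril-associated proteins, the lysyl oxidases, the thrombospondins and matrilins, and a set of named matrix proteins led by fibronectin. Where a gene had several probe sets, the one with the highest mean signal was taken. The cells were 3T3-L1, a mouse fibroblast line that becomes fat cells when given hormones, and each of 3 groups had 3 arrays of total RNA. Preadipocytes were undifferentiated 3T3-L1 cells, and the labels record no siRNA or electroporation for them. The other cells were induced with 1 µM dexamethasone, 0.5 mM 3-isobutyl-1-methylxanthine (IBMX, which raises cyclic AMP) and 10 µg/ml insulin for 2 days and kept in insulin for another 2 days. Such adipocytes were called mature at 8 days, when at least 95% had the shape of fat cells. At 14 days both adipocyte groups were detached with trypsin and collagenase, electroporated with 2 or 3 nmol of siRNA and seeded again, with a non-targeting oligonucleotide in control siRNA adipocytes and an oligonucleotide against PPAR gamma in PPAR gamma siRNA adipocytes. PPAR gamma is the nuclear receptor that drives fat cell formation. The series calls the 3 arrays of a group technical replicates, so each p reflects the spread among these arrays alone, which may be technical. In such bulk RNA, fewer cells of a type and less RNA per cell cannot be told apart.

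As background, laminins are trimers of an alpha, a beta and a gamma chain that form the basement membrane sheet around each fat cell together with nidogens, perlecan and type IV collagen. Elastic fibres are built from elastin on a scaffold of fibrillin microfibrils that fibulins, emilins and microfibril-associated proteins decorate, and lysyl oxidases cross-link elastin and collagen. Matricellular proteins, such as thrombospondins, tenascin C, periostin and SPARC, sit in the matrix but mostly signal to cells; preadipocytes lay down a fibronectin-rich fibroblast matrix, which fat cells replace with a basement membrane.

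Promoter sequences are shown for 6 members, to let a reader see the upstream DNA of genes that moved together. The members were picked after their values were seen: Sned1, Fbln7, Thbs2, Tnc and Vcan were lower in adipocytes and higher again with PPAR gamma siRNA, and Lamb3 did the opposite. Each is the 250 bases before a RefSeq gene start, from the table's build GRCm38.p6, written 5′ to 3′ on the strand of the gene, with letters of a searched motif in capitals. Sned1 (plus strand, chr1:93235647-93235896), Vcan (minus strand, chr13:89742513-89742762) and Lamb3 (plus strand, chr1:193301744-193301993) held none of the motifs in the window shown, and a second Lamb3 window in the table held the TEAD letters. The capitals mark GGAATG, read on the opposite strand, in Fbln7 (plus strand, chr2:128863682-128863931), starting at -43 from the gene start. They mark TATAAA in Tnc (minus strand, chr4:64047016-64047265) and, on the opposite strand, in Thbs2 (minus strand, chr17:14694263-14694512), both starting at -126. Over the whole table TATAAA on the gene strand began at -40 to -20 in 654 windows and at -140 to -120 in 150. Measured from the starts shown, neither match thus lies at the usual place of a TATA box. A second Tnc window, not shown, also held TATAAA, and its place there is not given here.
Sned1: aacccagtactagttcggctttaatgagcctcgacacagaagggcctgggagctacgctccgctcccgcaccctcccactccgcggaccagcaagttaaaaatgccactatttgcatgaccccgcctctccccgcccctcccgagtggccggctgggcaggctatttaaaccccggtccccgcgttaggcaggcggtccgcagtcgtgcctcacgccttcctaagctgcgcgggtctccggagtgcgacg
Fbln7: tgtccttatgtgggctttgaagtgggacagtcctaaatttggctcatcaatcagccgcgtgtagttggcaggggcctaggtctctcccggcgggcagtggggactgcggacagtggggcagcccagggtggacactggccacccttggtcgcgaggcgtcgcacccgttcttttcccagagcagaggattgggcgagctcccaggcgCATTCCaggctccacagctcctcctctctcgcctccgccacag
Thbs2: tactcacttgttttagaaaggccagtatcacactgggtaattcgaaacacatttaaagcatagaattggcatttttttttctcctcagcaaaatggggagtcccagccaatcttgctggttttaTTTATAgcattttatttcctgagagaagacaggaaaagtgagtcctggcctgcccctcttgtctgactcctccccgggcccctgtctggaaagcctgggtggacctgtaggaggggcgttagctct
Tnc: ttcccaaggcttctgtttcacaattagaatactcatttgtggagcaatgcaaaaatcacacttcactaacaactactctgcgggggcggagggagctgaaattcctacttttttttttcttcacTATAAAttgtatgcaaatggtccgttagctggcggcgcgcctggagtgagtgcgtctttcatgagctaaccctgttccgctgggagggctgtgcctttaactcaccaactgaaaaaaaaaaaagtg
Vcan: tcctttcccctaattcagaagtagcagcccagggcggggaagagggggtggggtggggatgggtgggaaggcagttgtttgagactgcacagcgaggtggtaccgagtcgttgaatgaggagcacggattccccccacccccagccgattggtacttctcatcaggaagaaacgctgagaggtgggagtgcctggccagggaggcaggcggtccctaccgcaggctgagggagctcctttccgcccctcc
Lamb3: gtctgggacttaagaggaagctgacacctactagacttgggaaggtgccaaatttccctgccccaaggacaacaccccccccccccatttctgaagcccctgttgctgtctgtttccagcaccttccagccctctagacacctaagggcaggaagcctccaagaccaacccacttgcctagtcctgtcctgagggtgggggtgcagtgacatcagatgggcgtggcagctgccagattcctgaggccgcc

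The table held 35 windows for 27 of the 45 members. The 4 motifs were searched on both strands, each counted on its own where matches of different motifs overlap. The letters GGAATG, bound by TEAD factors, were in 8 of the 35 member windows (22.9%) and in 12.6% of the 32851 windows of the whole table. Those windows were of Emilin2, Fbln7, Lamb3, Matn3, Matn4, Mfap2, Nid1 and Thbs4, which did not move together. In differentiation Fbln7, Matn4 and Mfap2 fell, Emilin2, Lamb3 and Thbs4 rose, and Matn3 and Nid1 were not called. The AP-1 letters TGANTCA were in 1 member window (2.86%, against 6.75%), the nuclear receptor half-site AGGTCA in 3 (8.57%, against 14%) and TATAAA in 4 (11.4%, against 12.4%). These are descriptions of letters in a short window and were not tested.

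Pparg, the target of the siRNA, was at 8.22 ± 0.12 in preadipocytes, 12.79 ± 0.12 with control siRNA and 9.59 ± 0.05 with PPAR gamma siRNA (log2 signal, mean ± SD, n = 3). It was 9.2-fold lower with PPAR gamma siRNA than with control siRNA (log2 change -3.20 ± 0.09, adjusted p = 1.27e-09). Below, a change is a difference of group means on the log2 scale ± SE, from limma, and a gene is said to have risen or fallen where its p, adjusted over 45037 probe sets, was under 0.05. Control siRNA adipocytes minus preadipocytes is called differentiation, which here includes detachment, electroporation, siRNA and renewed seeding. PPAR gamma siRNA minus preadipocytes includes these steps too. PPAR gamma siRNA minus control siRNA is called knockdown. The comparisons share arrays, so their values stand side by side and are not independent of each other.

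Array medians lay between 4.82 and 4.89. All 6 adipocyte markers measured rose in differentiation, and all 6 were lower with PPAR gamma siRNA. The 6 preadipocyte and fibroblast markers measured went the other way in both comparisons: their mean level was 12.38 to 12.51 in preadipocytes, 9.32 to 9.70 with control siRNA and 11.01 to 11.55 with PPAR gamma siRNA. Many members below follow that order, and the part of cell composition in their changes was not tested. Of the 7 endothelial markers, which averaged 3.64 to 3.98 on every array, 1 rose in differentiation and none was called in knockdown. Of the 6 smooth muscle markers 2 rose and 1 fell in each comparison, with means of 5.76 to 5.97 in the other groups and 6.28 to 6.33 with PPAR gamma siRNA. Of the 7 macrophage markers 2 rose in each, and their mean level was 4.56 to 4.60 in preadipocytes, 4.90 to 4.92 with control siRNA and 5.25 to 5.49 with PPAR gamma siRNA. In knockdown the rises were those of Cd14 (1.78 ± 0.10, adjusted p = 8.91e-08) and Cd68 (1.20 ± 0.22, adjusted p = 0.00125), which encode a lipopolysaccharide co-receptor and a lysosomal protein. The other 5 macrophage markers were not called in knockdown, with changes from -0.19 (Adgre1) to 0.10 (Ptprc). The part of these markers in the members' changes was not tested. RNA integrity was read from Actb, as its 3′ signal minus its 5′ signal, which was 0.23 to 0.36 in preadipocytes, 0.91 to 1.30 with control siRNA and 0.54 to 1.25 with PPAR gamma siRNA. For Gapdh this value ranged from -0.19 to 0.11. The spike-in BioB-5 was 7.08 to 7.60 in preadipocytes and 7.95 to 8.73 in adipocytes. With the Actb difference as a covariate, an alternative chosen after seeing the data, 25 members fell in differentiation and 25 rose in knockdown.

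Most of these matrix genes were lower in adipocytes than in preadipocytes, and most were higher after depletion of PPAR gamma than with control siRNA. In differentiation 26 of the 45 fell (57.8%, against 24.7% of all genes) and 6 rose (13.3%, against 27.1%). Knockdown went the other way, with 26 higher (57.8%, against 19.9%) and 3 lower (6.67%, against 16.1%). Against preadipocytes, PPAR gamma siRNA adipocytes had 19 members lower (42.2%, against 16.9%) and 8 higher (17.8%, close to the 19.6% of all genes). The median change of the members was -0.91 in differentiation, 0.52 in knockdown and -0.13 against preadipocytes, where the medians of all genes were 0.09, -0.01 and 0.07. Called changes of at least 2-fold were 22 falls and 3 rises in differentiation, where 10.6% and 8.83% of all genes passed the same limits. They were 17 rises and 2 falls in knockdown (5.68% and 4.61% of all genes), and 18 falls and 3 rises against preadipocytes (5.01% and 4.29%). The counts of the markers above and of the roles and lists below stand beside these shares of all genes and were not tested as lists. The 9 members called in none of the comparisons were Eln, Emilin3, Lama1, Lama2, Lama3, Lamc3, Matn1, Matn3 and Nid1. A mean under 5 was found for 8 members: Efemp1, Fbn2, Lama1, Lama3, Lamc3, Matn1, Matn3 and Thbs4. The measured range was 2.41 to 14.59, and the limit of 5 lay just above the array medians of 4.82 to 4.89. Whether a probe set was above background was not tested, so a change to or from a group mean under 5 is a difference of signals whose true size may be larger.

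**Figure D1:**
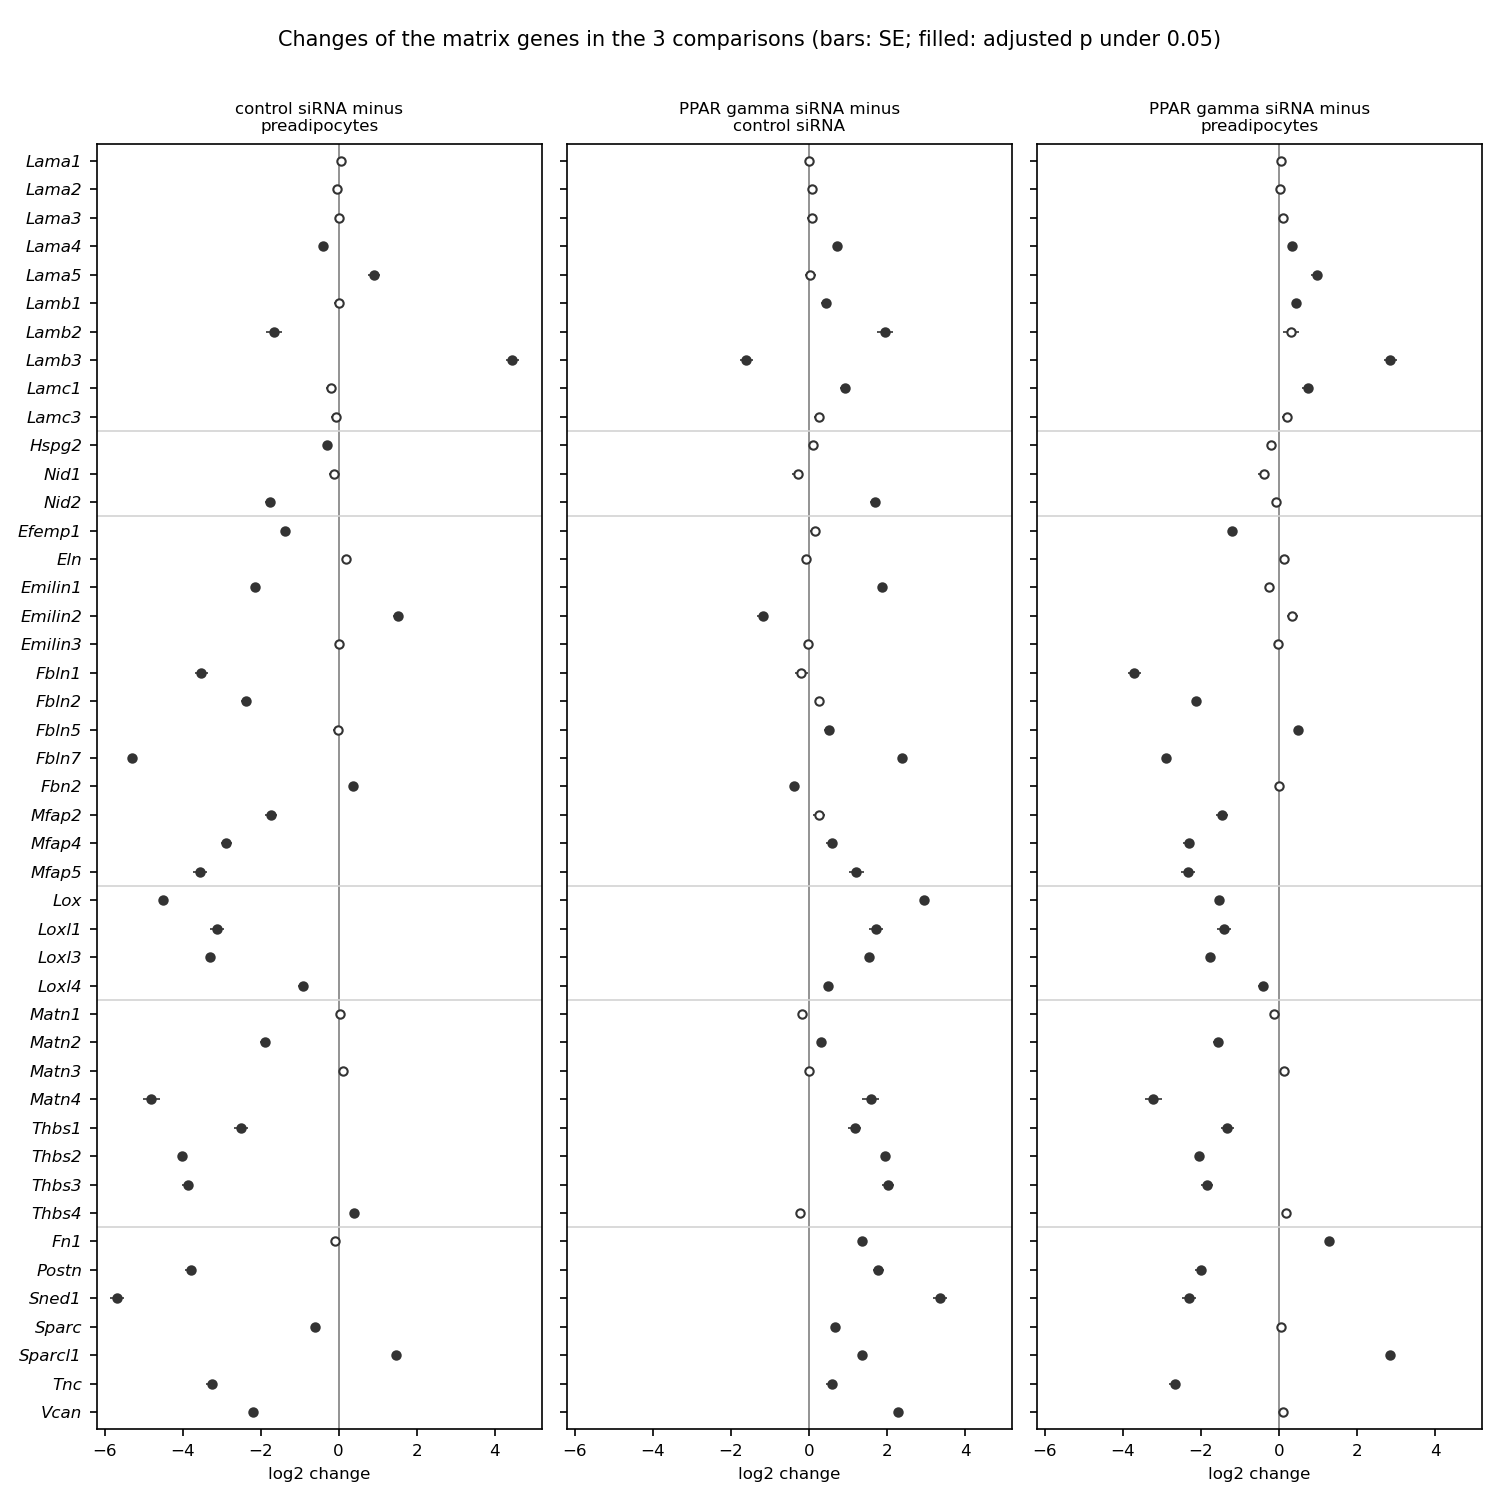
Log2 change of each of the 45 matrix genes in the 3 comparisons, in panels from left to right, with genes grouped by role (grey lines) and bars for the SE (often smaller than the point). Filled points passed an adjusted p under 0.05: 26 fell and 6 rose in the left panel, 26 rose and 3 fell in the middle panel, and 19 fell and 8 rose in the right panel.

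Of the 10 laminin chains, 2 rose, 2 fell and 6 were not called in differentiation, no more in either direction than the 27.1% and 24.7% of all genes. In knockdown 4 rose, 1 fell and 5 were not called. With PPAR gamma siRNA none was called below preadipocytes, and 5 were above, of which the Lama4 and Lamb1 calls were lost in some alternatives given below. Lamb3, a beta chain known from epithelial basement membranes such as that of the skin, was the member with the largest rise in differentiation. Its levels were 4.57, 3.88 and 4.25 in preadipocytes, 8.90, 8.73 and 8.41 with control siRNA and 7.22, 7.04 and 6.99 with PPAR gamma siRNA. No groups overlapped, and the adipocytes without knockdown were highest. It rose in differentiation (4.45 ± 0.17, adjusted p = 1.28e-09, from a preadipocyte mean under 5), fell in knockdown (-1.60 ± 0.17, adjusted p = 1.79e-05) and was still above preadipocytes by 2.85 ± 0.17. Lama3, the alpha chain that Lamb3 usually pairs with, was called in no comparison, with changes from 0.02 to 0.10.

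Lama4, the alpha chain of the laminin around fat cells and vessels, moved little. Its levels were 11.05, 11.05 and 11.05 in preadipocytes, 10.69, 10.63 and 10.67 with control siRNA and 11.25, 11.47 and 11.42 with PPAR gamma siRNA. The groups did not overlap, with control siRNA adipocytes lowest and PPAR gamma siRNA adipocytes highest. It fell in differentiation (-0.39 ± 0.08, adjusted p = 0.00259), rose in knockdown (0.72 ± 0.08, adjusted p = 3.95e-05) and ended above preadipocytes (0.33 ± 0.08, adjusted p = 0.00993). The last call was lost with the Actb difference as a covariate (0.29, adjusted p = 0.0947) and with the mean of both probe sets (0.22, adjusted p = 0.227). The second Lama4 probe set gave changes of -0.39 and 0.51, neither called. Lamb2, the beta chain found in muscle, kidney and vessel basement membranes, changed more. It stood at 8.29, 8.14 and 8.06 in preadipocytes, 6.77, 6.52 and 6.24 with control siRNA and 7.95, 8.63 and 8.80 with PPAR gamma siRNA. Control siRNA adipocytes were lowest without overlap, and the other groups overlapped. It fell in differentiation (-1.65 ± 0.20, adjusted p = 2.56e-05), rose in knockdown (1.95 ± 0.20, adjusted p = 1.32e-05) and differed from preadipocytes by 0.30 ± 0.20, adjusted p = 0.302. PPAR gamma siRNA array 1 was the lowest of its group, and without that array Lamb2 was above preadipocytes (0.55, adjusted p = 0.0184).

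The common chains Lamb1 and Lamc1, shared by most laminins of connective tissue, were not called in differentiation and rose in knockdown. Lamc1 rose by 0.93 ± 0.13 and Lamb1 by 0.43 ± 0.11 (adjusted p = 0.000123 and 0.0103). A second Lamc1 probe set differed: it rose in differentiation (1.01 ± 0.28, adjusted p = 0.011) and was not called in knockdown (0.53 ± 0.28, adjusted p = 0.205). The mean of the Lamb1 probe sets ended its knockdown call (0.25, adjusted p = 0.0584), as did leaving out the adipocyte arrays of highest Actb difference (0.40, adjusted p = 0.0665). Above preadipocytes Lamb1 stood by 0.44 ± 0.11, adjusted p = 0.00978, a call lost with the mean of its probe sets (0.18, adjusted p = 0.162), without probe sets of types x and s (0.17, adjusted p = 0.371) and with the Actb covariate (0.35, adjusted p = 0.117). Lama5, an alpha chain of mature epithelial and vascular basement membranes, rose in differentiation (0.91 ± 0.15, adjusted p = 0.000269), a call that was lost with the Actb difference as a covariate (0.43, adjusted p = 0.096) and kept with the mean of its probe sets (0.44, adjusted p = 0.00078). It was not called in knockdown (0.04 ± 0.15).

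Nid2 and Nid1 encode nidogens, which link the laminin and type IV collagen networks, and they were called differently. Nid2 stood at 9.52, 9.72 and 9.75 in preadipocytes, 7.99, 7.62 and 8.10 with control siRNA and 9.56, 9.63 and 9.58 with PPAR gamma siRNA. Control siRNA adipocytes were lowest without overlap, and PPAR gamma siRNA arrays lay inside the preadipocyte range. Nid2 fell by 1.76 in differentiation (SE 0.12, adjusted p = 1.99e-07) and rose by 1.69 ± 0.12 in knockdown (adjusted p = 7.96e-07). The brightest Nid1 probe set was not called in any comparison, with -0.11 ± 0.14 in differentiation and -0.28 ± 0.14 in knockdown. Its difference from preadipocytes (-0.39 ± 0.14, adjusted p = 0.0531) passed without PPAR gamma siRNA array 2 (-0.49, adjusted p = 0.0297) or array 3 (-0.46, adjusted p = 0.0436). It also passed after renewed quantile normalisation (-0.40, adjusted p = 0.0435), without dim probe sets (adjusted p = 0.0395) and with an intensity trend (adjusted p = 0.024). The same held without the adipocyte arrays of highest Actb difference (-0.46, adjusted p = 0.0437). Another Nid1 probe set rose in differentiation (0.61 ± 0.13, adjusted p = 0.00197) and fell in knockdown (-0.58 ± 0.13, adjusted p = 0.00452). The mean of all Nid1 probe sets also fell in knockdown (-0.30, adjusted p = 0.0375). The difference between Nid1 and Nid2 was not itself tested. Hspg2, which encodes the heparan sulphate proteoglycan perlecan, fell by 0.30 in differentiation (adjusted p = 0.03), and 4 of the single arrays ended that call when left out. They were preadipocyte array 1 (-0.29, adjusted p = 0.0809) and array 3 (-0.23, adjusted p = 0.118), and control siRNA array 1 (-0.25, adjusted p = 0.0946) and array 3 (-0.28, adjusted p = 0.0747). The call was also lost with the Actb covariate (-0.16, adjusted p = 0.503) and with a replicate block (-0.30, adjusted p = 0.0542).

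**Figure D2:**
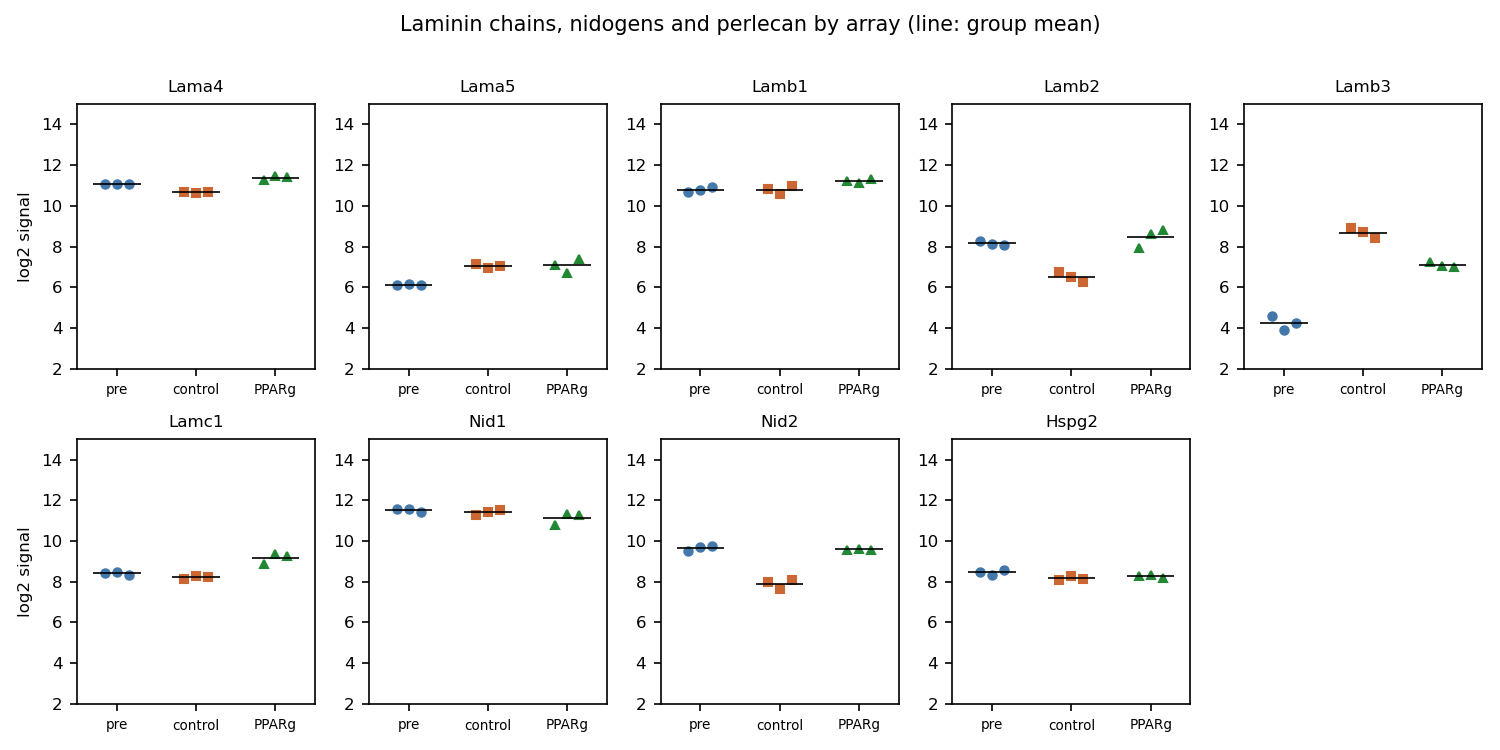
Log2 signal on each array (vertical axis, 2 to 15) of the 6 laminin chains called in any comparison and of Nid1, Nid2 and Hspg2, with arrays grouped as preadipocytes (circles), control siRNA (squares) and PPAR gamma siRNA (triangles) and a line at the group mean. Lamb3 is highest with control siRNA, whereas Lamb2 and Nid2 are lowest there.

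Among 12 other basement membrane genes, 3 rose and 4 fell in differentiation, and 3 rose and 3 fell in knockdown. Npnt, which encodes the integrin ligand nephronectin, rose by 3.11 ± 0.18 in differentiation and fell in knockdown (-1.99 ± 0.18, adjusted p = 5.7e-06). Smoc1, a SPARC relative of basement membranes, likewise rose (2.12 ± 0.16) and then fell (-1.57 ± 0.16, adjusted p = 1.22e-05). Its relative Smoc2 had the largest fall in differentiation (-3.04 ± 0.17, adjusted p = 3.5e-08, to a mean under 5) and was not called in knockdown (-0.18 ± 0.17). Pxdn, the peroxidase that cross-links type IV collagen, fell (-1.96 ± 0.17, adjusted p = 1.59e-06) and rose in knockdown (0.95 ± 0.17, adjusted p = 0.00116). The heparan sulphate proteoglycan agrin (Agrn) had the largest rise of this list in knockdown (1.16 ± 0.10, adjusted p = 4.67e-06). Lamb3 shared its order over the groups with Npnt and Smoc1, all highest with control siRNA, but this likeness was read from 3 groups and was not tested.

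Of 22 laminin and matricellular receptors, 6 rose and 9 fell in differentiation, and 8 rose and 4 fell in knockdown. Cd36, a thrombospondin receptor and fatty acid transporter of fat cells, rose in differentiation from 3.30 ± 0.15 (SD, n = 3), near the lowest values of the arrays, to 13.22 ± 0.13, and fell by 1.50 in knockdown (adjusted p = 4.31e-07). Itga7, the alpha subunit of a laminin-binding integrin, rose too (3.62 ± 0.11, adjusted p = 2.32e-10). Itga6, the subunit of another laminin-binding integrin, named here after its values were seen, rose by 3.42 ± 0.13 and fell in knockdown (-1.43 ± 0.13, adjusted p = 5.88e-06). Cd44, a receptor for hyaluronan, had the largest fall in differentiation (-4.18 ± 0.14, adjusted p = 4.23e-10) and the largest rise in knockdown (1.74 ± 0.14, adjusted p = 1.7e-06). Itga5, the alpha subunit of the classical fibronectin receptor, fell in differentiation (-2.83 ± 0.22, adjusted p = 5.42e-07) and was not called in knockdown (0.05 ± 0.22). Itgav, the shared alpha subunit of integrins for fibronectin and periostin, rose in knockdown (1.70 ± 0.10, adjusted p = 1.33e-07), and Itga1, a collagen and laminin receptor subunit, fell (-1.84 ± 0.17, adjusted p = 6.66e-06).

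The elastic fibre group, with 13 genes, fell in part and came back in part. In differentiation 8 of the 13 fell, 2 rose and 3 were not called. Knockdown raised 5, lowered 2 and left 6 without a call, and 7 stayed below preadipocytes. Fbln7, which encodes a cell-adhesive fibulin, had the largest fall of the group. Its levels were 9.56, 9.76 and 9.57 in preadipocytes, 4.57, 4.12 and 4.31 with control siRNA and 6.66, 6.75 and 6.77 with PPAR gamma siRNA. No groups overlapped, and PPAR gamma siRNA adipocytes lay between the other groups. The fall was -5.30 ± 0.11, adjusted p = 1.72e-11, to a control siRNA mean under 5, the rise in knockdown 2.39 ± 0.11, adjusted p = 3.59e-08, and the remaining gap to preadipocytes -2.90 ± 0.11, adjusted p = 6.96e-09.

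Emilin1, an elastin interface protein that also restrains TGF-beta processing, returned on its brighter probe set to near its level in preadipocytes. It stood at 9.72, 9.47 and 9.46 in preadipocytes, 7.40, 7.50 and 7.33 with control siRNA and 9.28, 9.36 and 9.21 with PPAR gamma siRNA. Control siRNA arrays were lowest without overlap, and the PPAR gamma siRNA arrays were just below all preadipocyte arrays. It fell by 2.14 ± 0.10 in differentiation and rose by 1.87 ± 0.10 in knockdown (adjusted p = 5.2e-09 and 6.2e-08). The remaining difference of -0.27 did not pass (adjusted p = 0.0541), but it did when both probe sets were averaged (-0.36, adjusted p = 0.0087), when dim probe sets were left out (adjusted p = 0.0346) and with an intensity trend (adjusted p = 0.047). The second Emilin1 probe set came back less: it changed by -1.30 ± 0.10 in differentiation and 0.86 ± 0.10 in knockdown. On it Emilin1 stayed below preadipocytes without overlap (-0.45 ± 0.10, adjusted p = 0.00497). Emilin2 went the other way: it rose in differentiation (1.52 ± 0.14, adjusted p = 2.18e-06) and fell in knockdown (-1.18 ± 0.14, adjusted p = 3.91e-05). Emilin3 was not called, with changes of 0.01 and -0.02.

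Fbln1 and Fbln2, fibulins of microfibrils and basement membranes, fell in differentiation and were not called in knockdown. The Fbln1 levels were 9.53, 9.37 and 9.08 in preadipocytes, 5.62, 5.88 and 5.91 with control siRNA and 5.94, 5.54 and 5.37 with PPAR gamma siRNA. Both adipocyte groups were far below preadipocytes and overlapped each other. The change was -3.52 ± 0.16, adjusted p = 4.89e-09 in differentiation and -0.19 ± 0.16, adjusted p = 0.459 in knockdown. A second Fbln1 probe set also fell in differentiation (-1.91 ± 0.13, adjusted p = 1.45e-07). The third, of nearly the same mean signal and at 4.75 to 5.37 over all arrays, rose by 0.31 (adjusted p = 0.0309). The mean of the 3 fell by 1.71 (adjusted p = 2.73e-09). Fbln2 stood at 12.80, 12.79 and 12.59 in preadipocytes, 10.41, 10.45 and 10.19 with control siRNA and 10.43, 10.68 and 10.72 with PPAR gamma siRNA. It was lower in all adipocyte arrays than in preadipocytes, and the adipocyte groups overlapped. Fbln2 changed by -2.38 ± 0.11 in differentiation and 0.26 ± 0.11 in knockdown (adjusted p = 6.84e-09 and 0.12). Without PPAR gamma siRNA array 1, the lowest of its group, the knockdown change was 0.35 and passed (adjusted p = 0.0418), and it also passed after renewed quantile normalisation (0.31, adjusted p = 0.0479). Fbln5, needed for elastic fibre assembly, was not called in differentiation (-0.03 ± 0.12) and rose in knockdown (0.52 ± 0.12, adjusted p = 0.00618), a call lost with the mean of both probe sets (0.28, adjusted p = 0.158).

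All 3 microfibril-associated genes fell in differentiation, and Mfap4 and Mfap5 rose in knockdown. Mfap4, which binds elastin and collagen, stood at 8.32, 8.03 and 7.68 in preadipocytes, 5.19, 5.04 and 5.16 with control siRNA and 5.74, 5.63 and 5.74 with PPAR gamma siRNA. No groups overlapped, and the PPAR gamma siRNA arrays stood only slightly above control siRNA. Mfap4 fell by 2.88 (SE 0.14, adjusted p = 8.15e-09) and rose by 0.58 ± 0.14 in knockdown (adjusted p = 0.00739). Mfap2, a fibrillin-binding glycoprotein gene, stood at 8.59, 8.11 and 8.15 in preadipocytes, 6.41, 6.40 and 6.86 with control siRNA and 6.91, 6.91 and 6.63 with PPAR gamma siRNA. All adipocyte arrays were below preadipocytes, and the adipocyte groups overlapped. Its change was -1.73 ± 0.16, adjusted p = 2.34e-06 in differentiation and 0.26 ± 0.16, adjusted p = 0.282 in knockdown, and averaged with a second probe set the former was -0.87 (adjusted p = 0.000114). Mfap5, a relative of Mfap2, fell by 3.56 to a control siRNA mean under 5 and rose by 1.22 ± 0.18 in knockdown (adjusted p = 0.000317), sizes that became -2.32 and 0.67 as the mean of both probe sets. Efemp1, a fibulin relative, was at 3.10 to 3.43 with control siRNA, near the bottom of the range, after a fall of 1.37 (adjusted p = 7.7e-07), and was not called in knockdown (0.15 ± 0.11).

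Elastin itself was at a low signal in every group. Eln stood at 5.51, 5.30 and 5.41 in preadipocytes, 5.67, 5.60 and 5.55 with control siRNA and 5.55, 5.59 and 5.45 with PPAR gamma siRNA. Control siRNA arrays were above preadipocytes without overlap, by 0.20 ± 0.09, adjusted p = 0.0875, and PPAR gamma siRNA arrays overlapped both. The knockdown change was -0.08 ± 0.09, adjusted p = 0.597, and a second Eln probe set differed by -0.10 in differentiation (adjusted p = 0.351). After renewed quantile normalisation the differentiation change of the first was 0.31 and passed (adjusted p = 0.0108). Fbn2, a fibrillin gene of developing microfibrils, was at 3.20 to 3.77 on every array. It was called in differentiation (0.36 ± 0.10, adjusted p = 0.0147) and knockdown (-0.37 ± 0.10, adjusted p = 0.0189). The former call was lost without preadipocyte array 2 (0.28, adjusted p = 0.0735). The latter was lost without control siRNA array 3 (-0.34, adjusted p = 0.0608), PPAR gamma siRNA array 2 (-0.35, adjusted p = 0.0603) or array 3 (-0.31, adjusted p = 0.0758).

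The lysyl oxidases were the role in which each measured member, by its brightest probe set, fell in differentiation, rose in knockdown and stayed below preadipocytes. Their median changes were -3.21, 1.62 and -1.47 over the 4 genes. Lox, the founding copper enzyme of the family, stood at 13.50, 13.49 and 13.54 in preadipocytes, 9.14, 9.01 and 8.91 with control siRNA and 11.82, 12.14 and 11.95 with PPAR gamma siRNA. No groups overlapped, and PPAR gamma siRNA arrays lay between the others, nearer to preadipocytes. Lox fell 22.5-fold in differentiation (-4.49 ± 0.10, adjusted p = 1.94e-11) and rose 7.71-fold in knockdown (2.95 ± 0.10, adjusted p = 2.76e-09), with -1.54 ± 0.10 left against preadipocytes. A second bright Lox probe set gave -4.24, 2.78 and -1.46 in the same order.

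Loxl1, required for elastic fibre upkeep, stood at 12.73, 12.71 and 12.76 in preadipocytes, 9.81, 9.74 and 9.32 with control siRNA and 10.94, 11.75 and 11.31 with PPAR gamma siRNA. The groups did not overlap, and the PPAR gamma siRNA arrays were spread, with array 1 lowest. Loxl1 changed by -3.11 ± 0.18, adjusted p = 4.61e-08 in differentiation and 1.71 ± 0.18, adjusted p = 1.88e-05 in knockdown. Loxl3, a related oxidase, stood at 10.18, 10.15 and 10.19 in preadipocytes, 6.98, 6.69 and 6.95 with control siRNA and 8.41, 8.41 and 8.39 with PPAR gamma siRNA. Here too no groups overlapped, and the PPAR gamma siRNA arrays agreed closely with each other. Loxl3 changed by -3.30 ± 0.09, adjusted p = 1.15e-10 in differentiation and 1.53 ± 0.09, adjusted p = 1.94e-07 in knockdown. Loxl4 fell least of the family, by 0.91 (adjusted p = 4.13e-05). In knockdown it rose by 0.50 ± 0.12 (adjusted p = 0.00596), but a second Loxl4 probe set was not called there (0.43 ± 0.16, adjusted p = 0.0703). On the brighter probe set the remaining difference from preadipocytes (-0.41 ± 0.12, adjusted p = 0.0191) lost its call without preadipocyte array 1 (-0.34, adjusted p = 0.0838) or array 3 (-0.41, adjusted p = 0.0521). The same held without PPAR gamma siRNA array 2 (-0.39, adjusted p = 0.058) or array 3 (-0.39, adjusted p = 0.052), with the Actb covariate (-0.32, adjusted p = 0.167) and after renewed quantile normalisation (-0.30, adjusted p = 0.0897). As the mean of both probe sets it was larger and called (-0.78, adjusted p = 4.62e-05).

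**Figure D3:**
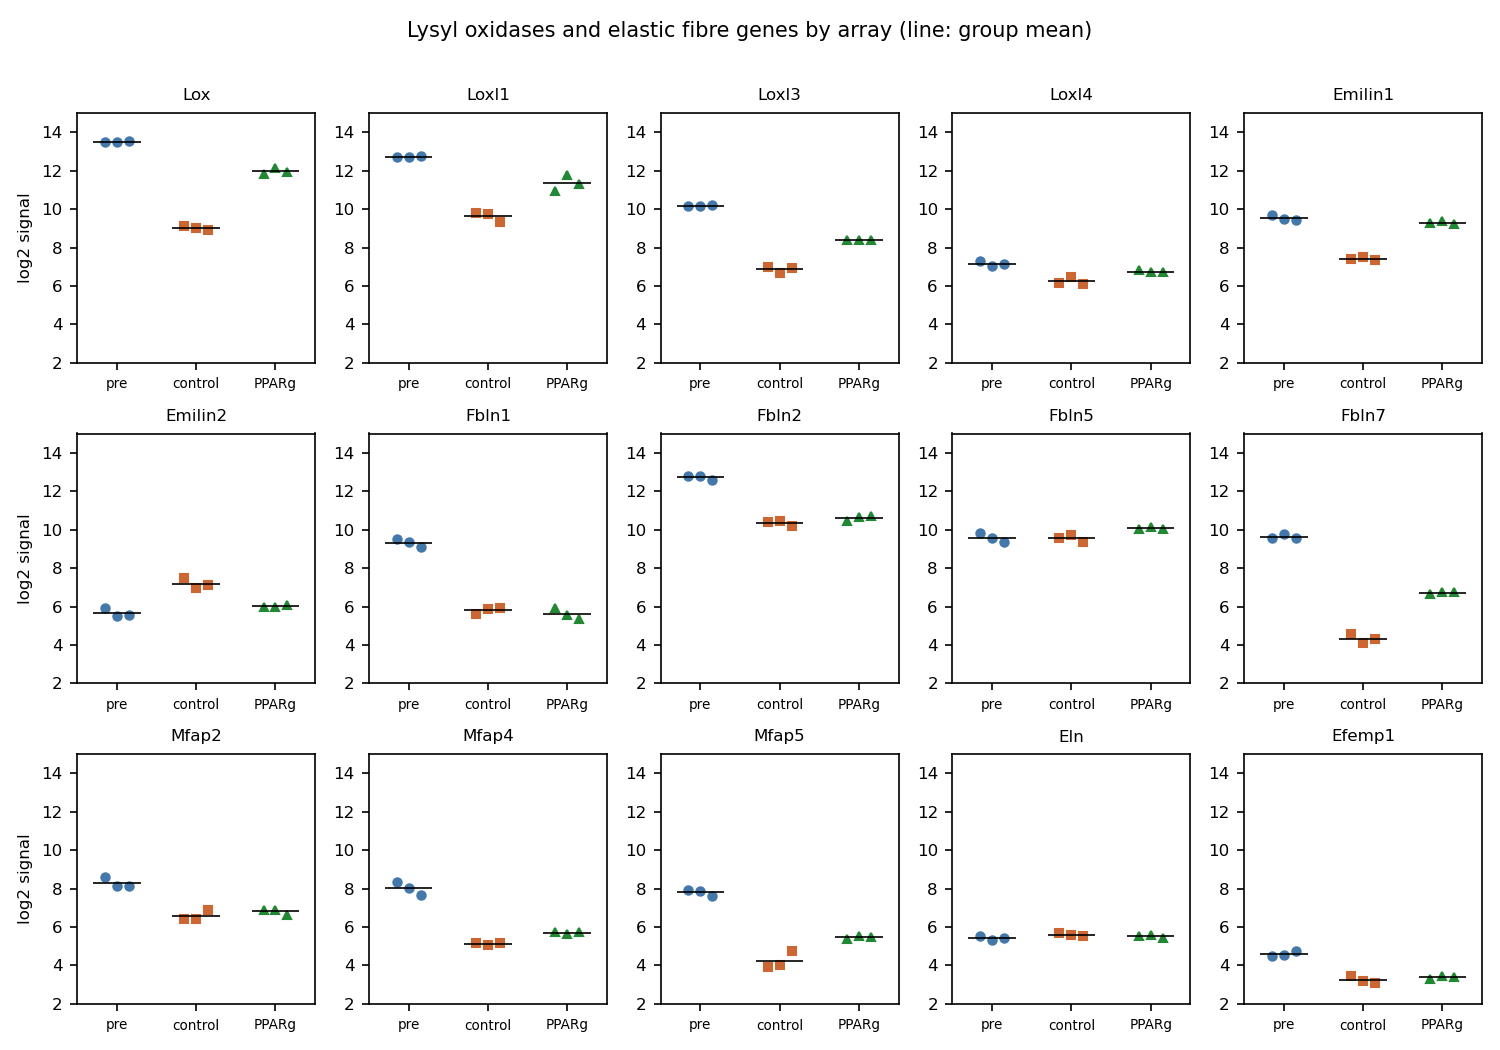
Log2 signal on each array (vertical axis, 2 to 15) of the 4 lysyl oxidases and 11 elastic fibre genes, with preadipocytes as circles, control siRNA as squares, PPAR gamma siRNA as triangles and a line at the group mean. The lysyl oxidases are lowest with control siRNA and between the other groups with PPAR gamma siRNA, whereas Fbln1, Fbln2 and Mfap2 overlap between the adipocyte groups and Eln stays between 5.30 and 5.67.

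The enzymes and binding partners around microfibrils and lysyl oxidases were followed as 20 measured genes. In differentiation 11 fell and 4 rose, and in knockdown 12 rose and 1 fell. Tgfb3, a TGF-beta ligand stored on microfibrils, had the largest fall (-3.99 ± 0.17, adjusted p = 3.1e-09), and Ltbp1, which tethers latent TGF-beta there, the next (-2.83 ± 0.14, adjusted p = 1.45e-08). Tgfb2, another ligand, rose in differentiation (0.81 ± 0.13) and was the only one of the 20 called lower in knockdown (-0.97 ± 0.13, adjusted p = 9.26e-05). Ltbp3 rose by 0.69 ± 0.09 in differentiation (adjusted p = 7.14e-05). Bmp1, the protease that activates pro-lysyl oxidase and trims procollagen, had a knockdown rise of 2.10 ± 0.13 (adjusted p = 3.15e-07). Pcolce2, an enhancer of that protease, rose most in knockdown (2.45 ± 0.25, adjusted p = 1.16e-05).

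Thrombospondins 1 to 3 fell together in differentiation and rose in knockdown without reaching preadipocytes. Of the 8 thrombospondin and matrilin genes, 5 fell and 1 rose in differentiation, and 5 rose and none fell in knockdown. Thbs2, whose protein restrains vessel growth and clears matrix proteases, stood at 11.56, 11.49 and 11.36 in preadipocytes, 7.64, 7.41 and 7.33 with control siRNA and 9.49, 9.31 and 9.47 with PPAR gamma siRNA. No groups overlapped, and PPAR gamma siRNA arrays were between the others. The fall was 16.1-fold (-4.01 ± 0.10, adjusted p = 6.23e-11) and the rise in knockdown 3.89-fold (1.96 ± 0.10, adjusted p = 7.13e-08). The other probe sets of Thbs2 gave -3.89 and -4.89 in differentiation, and 1.60 and 1.75 in knockdown. Thbs3, a pentameric thrombospondin gene, stood at 8.31, 8.39 and 8.50 in preadipocytes, 4.14, 4.71 and 4.75 with control siRNA and 6.38, 6.62 and 6.67 with PPAR gamma siRNA. Its groups were separate in the same order, and its changes were -3.87 ± 0.15, adjusted p = 1.69e-09, to a control siRNA mean under 5, and 2.03 ± 0.15, adjusted p = 1.13e-06. Thbs1, an activator of latent TGF-beta, stood at 10.44, 10.15 and 10.00 in preadipocytes, 7.57, 7.69 and 7.82 with control siRNA and 8.46, 9.08 and 9.06 with PPAR gamma siRNA. It was again lowest with control siRNA without overlap, with PPAR gamma siRNA array 1 below the other arrays of its group. Thbs1 changed by -2.50 ± 0.17, adjusted p = 1.47e-07 in differentiation and 1.17 ± 0.17, adjusted p = 0.000194 in knockdown. Thbs4 was dim, at 3.93 to 4.53 on every array, and its rise of 0.39 ± 0.10 in differentiation passed (adjusted p = 0.00831).

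Matrilins are filament-forming adaptor proteins best known from cartilage. Matn4 stood at 10.43, 10.40 and 10.23 in preadipocytes, 5.63, 5.62 and 5.41 with control siRNA and 6.51, 7.36 and 7.53 with PPAR gamma siRNA. The groups did not overlap, and PPAR gamma siRNA array 1 lay well below the other arrays of its group. Matn4 fell 27.9-fold (-4.80 ± 0.21, adjusted p = 4.01e-09), rose in knockdown (1.58 ± 0.21, adjusted p = 0.000112) and kept a gap of -3.22 ± 0.21 to preadipocytes. Matn2, found in many connective tissues, stood at 11.18, 11.21 and 11.02 in preadipocytes, 9.19, 9.42 and 9.10 with control siRNA and 9.45, 9.68 and 9.56 with PPAR gamma siRNA. Control siRNA and PPAR gamma siRNA arrays did not overlap, but the highest of the former (9.42) and the lowest of the latter (9.45) were close, and both groups were far below preadipocytes. Its fall in differentiation was -1.90 ± 0.11, adjusted p = 3.41e-08, and its rise in knockdown was small (0.32 ± 0.11, adjusted p = 0.0421). That rise lost its call without preadipocyte array 1 (adjusted p = 0.06) or array 2 (adjusted p = 0.0586), control siRNA array 1 (0.30, adjusted p = 0.105) or array 3 (0.26, adjusted p = 0.143), or PPAR gamma siRNA array 2 (0.26, adjusted p = 0.149) or array 3 (0.33, adjusted p = 0.0861). It was also lost with the Actb covariate (0.30, adjusted p = 0.0921) and when only the compared groups were fitted (adjusted p = 0.0766). Matn1 and Matn3 were at 2.73 to 3.73 on every array and were not called.

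All 7 fibronectin and matricellular genes were higher with PPAR gamma siRNA than with control siRNA, with rises from 0.58 to 3.36. In differentiation 5 of them fell, Sparcl1 rose and Fn1 was not called. Sned1, which encodes a matrix protein with fibronectin type III and EGF-like domains, had the largest fall of all 45 members in differentiation and the largest rise in knockdown. It stood at 10.93, 11.16 and 11.31 in preadipocytes, 5.42, 5.55 and 5.42 with control siRNA and 8.37, 9.17 and 8.93 with PPAR gamma siRNA. No groups overlapped: preadipocytes were highest, control siRNA arrays lowest and close together, and PPAR gamma siRNA arrays between them. Sned1 fell 50.9-fold (-5.67 ± 0.18, adjusted p = 2.54e-10) and rose 10.3-fold in knockdown (3.36 ± 0.18, adjusted p = 6.69e-08), ending -2.31 ± 0.18 from preadipocytes. Postn, the gene of periostin, which helps lysyl oxidase act on collagen, stood at 14.23, 14.22 and 14.19 in preadipocytes, 10.45, 10.21 and 10.61 with control siRNA and 11.91, 12.44 and 12.26 with PPAR gamma siRNA. These groups too were separate, with PPAR gamma siRNA arrays between the others. Postn changed by -3.79 ± 0.14, adjusted p = 8.47e-10 in differentiation and 1.78 ± 0.14, adjusted p = 1.36e-06 in knockdown.

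Tnc, which encodes tenascin C, an anti-adhesive glycoprotein of wounds and embryos, stood at 8.73, 8.77 and 9.0 in preadipocytes, 5.67, 5.74 and 5.35 with control siRNA and 5.88, 6.36 and 6.26 with PPAR gamma siRNA. Preadipocytes were far above both adipocyte groups, which were close but did not overlap. It fell by 3.25 in differentiation (SE 0.14, adjusted p = 4.46e-09) and rose by 0.58 ± 0.14 in knockdown (adjusted p = 0.00941). With a dim second probe set averaged in, Tnc fell by 1.76 (adjusted p = 2.84e-08), and the knockdown call was lost (0.24, adjusted p = 0.111). Vcan, the gene of the large proteoglycan versican, was again near its level in preadipocytes after knockdown. Its levels were 9.67, 9.67 and 9.72 in preadipocytes, 7.44, 7.39 and 7.63 with control siRNA and 9.54, 9.97 and 9.82 with PPAR gamma siRNA. Control siRNA arrays were lowest without overlap, and PPAR gamma siRNA arrays lay on both sides of the preadipocyte arrays. Vcan changed by -2.20 ± 0.11, adjusted p = 1.61e-08 in differentiation and 2.29 ± 0.11, adjusted p = 4.45e-08 in knockdown, and by 0.09 ± 0.11, adjusted p = 0.588 against preadipocytes. The other bright Vcan probe sets gave -2.77 and -2.20 in differentiation, and 2.96 and 2.28 in knockdown, and 5 dim ones brought the mean of all its probe sets to -1.08 and 1.01.

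Sparc, a collagen-binding protein that restrains fat cell formation, changed less. It stood at 13.47, 13.44 and 13.34 in preadipocytes, 12.88, 12.83 and 12.70 with control siRNA and 13.35, 13.60 and 13.43 with PPAR gamma siRNA. Control siRNA arrays were lowest without overlap, and the PPAR gamma siRNA and preadipocyte arrays overlapped. Sparc fell by 0.61 in differentiation (SE 0.09, adjusted p = 0.000193), rose by 0.66 ± 0.09 in knockdown (adjusted p = 0.000203) and differed from preadipocytes by 0.04 ± 0.09, adjusted p = 0.776. A second Sparc probe set fell by 1.36 and rose by 1.13, whereas the dimmest, at 5.84 to 6.45, rose in differentiation (0.37 ± 0.11, adjusted p = 0.0176) and was not called in knockdown (-0.14 ± 0.11). Sparcl1, a Sparc relative also known as hevin, behaved unlike the other members. It stood at 9.82, 9.98 and 9.88 in preadipocytes, 11.37, 11.40 and 11.32 with control siRNA and 12.49, 12.87 and 12.85 with PPAR gamma siRNA. The groups did not overlap, with preadipocytes lowest and PPAR gamma siRNA adipocytes highest. It rose in differentiation (1.47 ± 0.11, adjusted p = 3.35e-07), rose again in knockdown (1.37 ± 0.11, adjusted p = 1.59e-06) and was 7.18-fold above preadipocytes (2.84 ± 0.11, adjusted p = 4.94e-09).

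**Figure D4:**
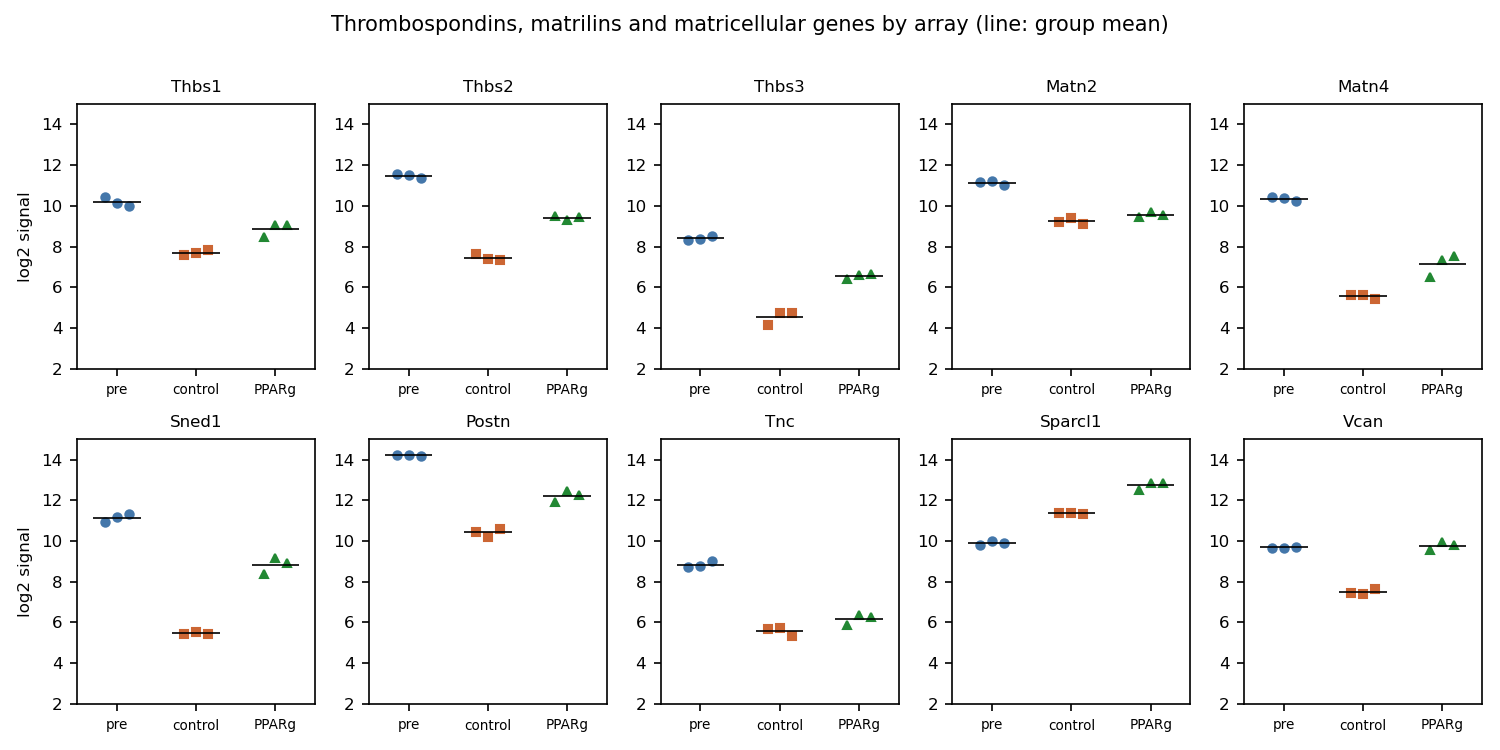
Log2 signal on each array (vertical axis, 2 to 15) of 5 thrombospondin and matrilin genes and 5 matricellular genes, with preadipocytes as circles, control siRNA as squares, PPAR gamma siRNA as triangles and a line at the group mean. Of the 10 genes, 9 are lowest with control siRNA, Vcan with PPAR gamma siRNA overlaps preadipocytes, and Sparcl1 steps up from 9.82 to 12.87.

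Fn1, the gene of fibronectin, the adhesive glycoprotein of the fibroblast matrix, had a pair of probe sets that did not give the same result. The brighter stood at 11.48, 11.49 and 11.38 in preadipocytes, 11.31, 11.33 and 11.39 with control siRNA and 12.63, 12.79 and 12.74 with PPAR gamma siRNA. Preadipocyte and control siRNA arrays overlapped, and all PPAR gamma siRNA arrays were above both. On this probe set Fn1 was not called in differentiation (-0.10 ± 0.08, adjusted p = 0.33), rose in knockdown (1.37 ± 0.08, adjusted p = 1.85e-07) and was above preadipocytes (1.27 ± 0.08, adjusted p = 3.98e-07). The dimmer stood at 6.84, 6.73 and 6.57 in preadipocytes, 4.20, 4.95 and 4.35 with control siRNA and 4.81, 5.21 and 6.02 with PPAR gamma siRNA. Here preadipocytes were highest without overlap, and the adipocyte groups overlapped, PPAR gamma siRNA array 3 being highest of these. On it Fn1 fell in differentiation (-2.21 ± 0.27, adjusted p = 2.7e-05), rose in knockdown (0.84 ± 0.27, adjusted p = 0.0351) and was below preadipocytes (-1.37 ± 0.27, adjusted p = 0.00203). Both probe sets rose in knockdown, but they had opposite calls against preadipocytes. Their mean fell by 1.16 in differentiation (adjusted p = 4.82e-05) and its difference from preadipocytes after knockdown did not pass (-0.05, adjusted p = 0.837). Which part of the transcript each probe set reads was not analysed here.

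Over the 27 members with several probe sets, calls in opposite directions occurred for Fbln1 and Sparc in differentiation, for none in knockdown and for Fn1 against preadipocytes. The Sparc probe set that opposed was the dimmest of its gene. The opposing Fbln1 probe set (mean 4.98 over all arrays) was hardly dimmer than the second one (4.99), which fell.

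**Figure D5:**
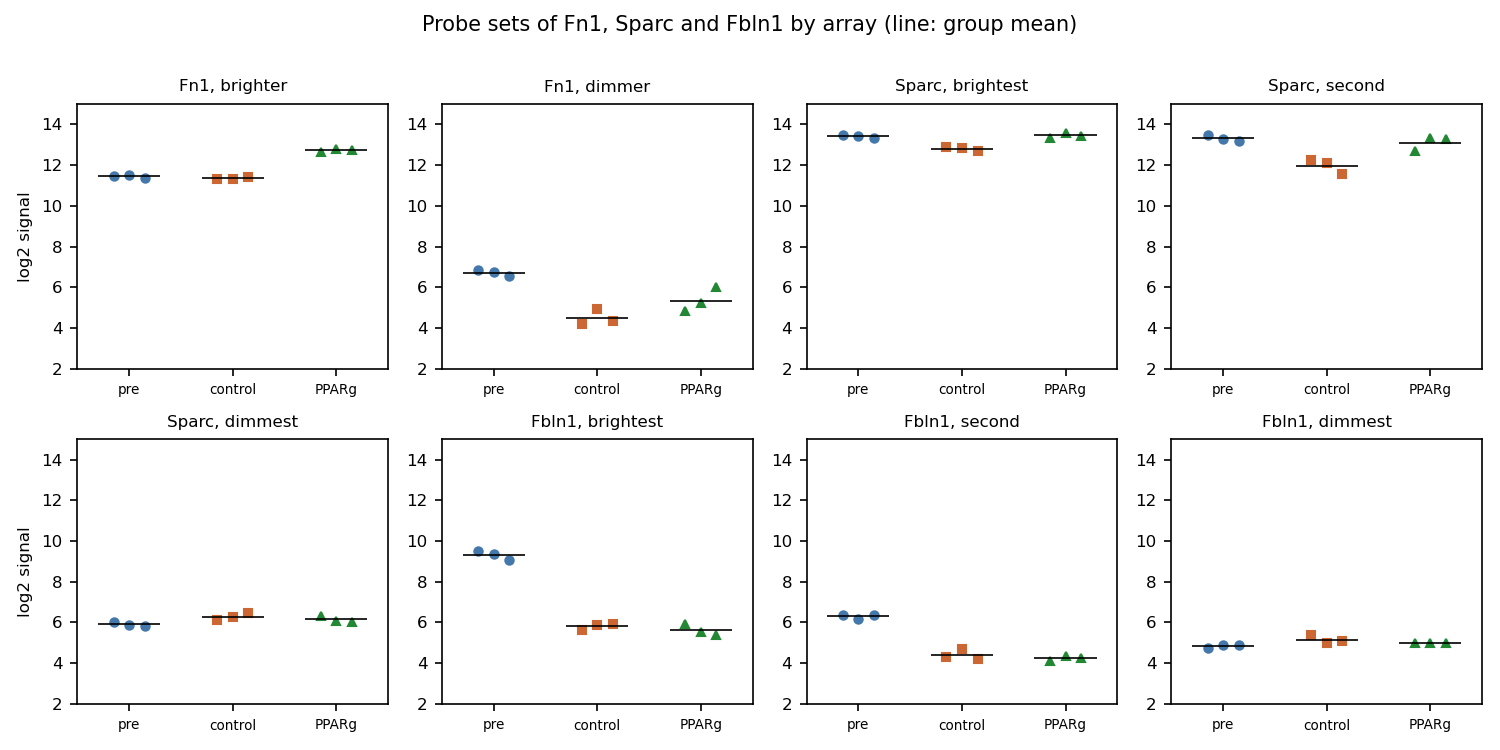
Log2 signal on each array (vertical axis, 2 to 15) of every probe set of Fn1, Sparc and Fbln1, with preadipocytes as circles, control siRNA as squares, PPAR gamma siRNA as triangles and a line at the group mean. The brighter probe set of Fn1 is highest with PPAR gamma siRNA, whereas the dimmer is highest in preadipocytes, and the dimmest probe sets of Sparc and Fbln1 lie between 4.75 and 6.45 with little change.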

How the data were processed

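Total RNA of 9 3T3-L1 samples was hybridised to 1 single-colour oligonucleotide array each, 3 per group, with groups taken from the sample labels. The deposited values are probe set summaries that the authors had already normalised, read as log2 from their range. Per the submitters' processing notes MAS5, RMA and affy 1.16.0 were used, with no role or order given. The labels do not say which arrays had 2 and which 3 nmol of siRNA, and the time from siRNA to harvest is not stated there. Values were used without further scaling, leaving out 64 control probe sets.

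The 3 comparisons came from 1 fit of the 9 arrays in limma 3.58.1 (R 4.3.3), with moderated variances, two-sided tests and Benjamini-Hochberg adjustment over 45037 probe sets. Calls were made at an adjusted p under 0.05. The fit was tested on simulated data with independent noise, which cannot show how it performs on technical replicates, and the outcome is not given here. Of the annotated probe sets 34945 had 1 gene symbol and 932 several, and the probe set of highest mean stood for each of 18193 genes, of which 9010 had several. The 45 members had 86 probe sets, and 3 probe sets that join Loxl2 or Thbs1 to another gene were not used. All members matched RefSeq by gene ID. Precision is limited by 3 arrays a group.

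The members and lists were chosen with earlier results of these data known. Array values are given for members with a called, non-overlapping change of at least 2-fold and a highest group mean of at least 8, and for Fn1, Eln, Sparc and Lama4. Up to 2 rises and 2 falls of each partner list are named. Array values are in the order of replicates 1 to 3. Alternatives were renewed quantile normalisation, median centring, the mean of all probe sets, a replicate block, a 2-fold minimum, robust variances with an intensity trend, a fit of the compared groups alone, leaving out dim probe sets or those whose names mark them as shared between genes (types x and s), and leaving out each array. The Actb covariate and the omission of 1 array of each adipocyte group were chosen after seeing the data.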

Additional observations from a re-analysis of the deposited data

How the results depend on the processing

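Over the settings run other than the 2-fold minimum, 29 of the 32 calls in differentiation, 24 of 29 in knockdown and 22 of 27 against preadipocytes held wherever a value was given, and of the values of members not called, 61 of 874 changed sign. Fn1 against preadipocytes was the only called value that reversed, to -0.05 with the mean of both probe sets. With the mean of all probe sets, 4 members in place of 8 were higher than preadipocytes, and the values of 6, 6 and 9 called members in the 3 comparisons moved by over 1.5 times. With a 2-fold minimum the members higher were 3 in differentiation, 17 in knockdown and 3 against preadipocytes. Without the adipocyte arrays of highest Actb difference, 25 members fell in differentiation and 24 rose in knockdown. With the replicate block 25 members fell and 6 rose in differentiation, and 26 rose and 3 fell in knockdown. Same-numbered arrays had correlations of their deviations from -0.188 to 0.173, and not every array was closest to its own number. With 3 arrays a group, such correlations cannot tell whether same-numbered samples were paired. The block ended the Hspg2 call in differentiation. With 3 arrays a group, small changes of dim probe sets such as Fbn2 and Thbs4 are the least certain.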

Other observations

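PPAR gamma siRNA array 1 was the lowest of its group for 24 of the 45 members (53.3%, against 37.3% of all genes), and array 2 was the highest for 23 of them (51.1%, against 28.5%). Uneven orders were also seen elsewhere. Array 3 was lowest for 46.7% of members in preadipocytes (against 35.1%) and in control siRNA adipocytes (against 35.2%). Array 1 was highest for 48.9% in preadipocytes (against 38.8%) and 42.2% with control siRNA (against 42.8%). The members that stood apart most on PPAR gamma siRNA array 1 included Matn4, Lamb2 and Sned1, which were named after their values were seen. Their values there were 6.51, 7.95 and 8.37, where the other arrays of the group had 7.36 and 7.53, 8.63 and 8.80, and 9.17 and 8.93.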
